A study of Mus musculus with 12 samples.

Results

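The genes described here were chosen by symbol to cover Mediator and the general machinery of RNA polymerase II (Pol II). They were taken as all probe sets whose only platform symbol begins with *Med* and a digit, *Polr2*, *Gtf2*, *Taf* and a digit or *Supt* and a digit, or is *Tbp*, *Cdk8* or *Ccnc*, with the brightest probe set kept for each gene. This gave 47 genes, covered by 54 probe sets, of 8251 genes with a symbol of their own on the array. They fall into 14 Mediator genes, 11 Pol II subunits, 10 genes named for general transcription factors, 10 genes for TBP and TAFs and 2 SPT factors. Of the TAF genes, 4 (*Taf1a*, *Taf1b*, *Taf1c* and *Taf1d*) encode subunits of SL1, which serves RNA polymerase I, and are here by their symbol alone. All but *Med12l*, 46 genes in all, passed the filter on low signals: in 1 or more of the 6 conditions (3 genotypes, 2 treatments) the mean had to reach 100. *Med12l* encodes a paralog of MED12 and gave signals of 8.9 to 69.1.

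Total thymocytes came from 6 female mice of the C57Bl/6 x 129Sv (F1) strain, aged 6 to 7 weeks. The controls were 2 *Med23*+/+;*Lck-Cre* mice, called Lck-Cre here, and 2 *Med23*flox/flox mice, called flox here, and the MED23 null group was 2 *Med23*flox/flox;*Lck-Cre* mice. The cells of each mouse rested for 4 h and then spent 3 h in a well without antibody (mock) or with plate-bound αCD3, an antibody that engages the T-cell receptor complex. Each of the 12 samples was hybridised to 1 Affymetrix Murine Genome array. The *Lck-Cre* transgene acts in the T lineage from the DN4 stage onward, so earlier thymocytes and other cells in the suspension keep *Med23*, and Cre was carried by 1 of the 2 control genotypes.

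Mediator is a large complex that links transcription factors bound at enhancers and promoters to Pol II. It consists of head, middle and tail modules and a kinase module that joins reversibly, and MED23 is a tail subunit known as the target of the MAPK-responsive factor ELK1. Pol II starts transcription at a promoter together with TFIIA, TFIIB, TFIID (TBP and its TAFs), TFIIE, TFIIF and TFIIH, and SPT5 and SPT6 accompany it during elongation.

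The arrays carried the signature of thymocytes. All 12 measured markers of thymocytes passed the filter. Their summed signal was 121357 to 126808 on mock control arrays and 103633 to 108587 on mock null arrays. Of the 12, 4 were below all mock controls and 1, *Cd4*, was above. After αCD3 the sum was 112060 to 113398 in controls and 106075 to 109728 in null mice, so the null sums were below every control array in each treatment. Single markers did not all follow, since after αCD3 1 (*Cd8a*) was below all controls and 2 (*Cd4* and *Thy1*) were above. *Rag1*, *Dntt* and *Cd8b1*, the brightest of the 12, weigh most in the sums. The summed signal of 8 markers of mature single positive thymocytes, the cells that follow the double positive stage, was 8449 to 12218 on mock control arrays and 4542 to 5028 on mock null arrays, and 7 of the 8 were below all control arrays in each treatment. On mock null arrays the sum of 6 B-cell markers was 7560 to 7774 against 6385 to 6941 in mock controls, most of it from *Ighm*. Of the 6, 2 (*Ighm* and *Ms4a1*) were above all mock controls and the rest overlapped. *Hba-a1*, which encodes α-globin, reached 36041 and 37280 in null mouse 1 against 5935 to 16268 in all other mice. Of the other erythroid markers, *Alas2* was also highest in null mouse 1 (988 and 915, against 116 to 360). *Car2* (304 and 249) lay among the controls there, and *Car1* and *Epor* did not pass the filter. Markers of myeloid cells gave overlapping sums, and 1 of 5 epithelial markers passed the filter. The αCD3 array of flox mouse 1 stood apart, with a lower quartile of the signal of 85.3 against at most 58.4 and a mean correlation with the other arrays of 0.905 against 0.937 to 0.945. The 3′ to 5′ signal ratio of β-actin, a measure of RNA integrity, was 1.90 and 1.61 on the null αCD3 arrays and 1.35 to 1.41 on the control αCD3 arrays. On mock arrays it overlapped, at 1.44 and 1.63 in null mice and 1.35 to 1.60 in controls. The same ratio of *Gapdh* after αCD3 was 0.636 and 0.766 in null mice 1 and 2, against 0.599 to 0.648 in controls. The part of these differences in the results below was not tested. In RNA of a mixed suspension, fewer cells of a type and less RNA per cell cannot be told apart from the arrays alone. By flow cytometry the study found normal shares of the thymocyte populations, single positive cells included, in mice of the null genotype. In isolated CD4 single positive cells it found less *Klf2* and *Cd52* mRNA, while *S1pr1* tended to be lower. *Klf2*, *Cd52* and *S1pr1* are among the 8 markers of mature cells used here. The parts of cell number and of RNA per cell in the sum were not tested.

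*Med23* itself was read first. Mock signals were 424 and 368 in the Lck-Cre mice, 288 and 381 in the flox mice, and 268 and 207 in the null mice. After αCD3 they were 310 and 425 in the Lck-Cre mice, 489 and 381 in the flox mice, and 252 and 239 in the null mice. In each treatment the pair of null arrays had lower signals than any of the 4 controls, by a narrow margin in mock cells, where null mouse 1 (268) and flox mouse 1 (288) were close. The mean was 365 ± 56.8 (SD, n = 4) in mock controls and 238 ± 43.2 (SD, n = 2) in mock null cells, and the null to control ratio of means was 0.651 in mock and 0.612 after αCD3. On the log2(signal + 50) scale used for all tests, which understates changes of low signals, the null minus control difference was -0.53 (SE 0.19) in mock cells and -0.59 (SE 0.21) after αCD3. Neither passed the limma test after Benjamini-Hochberg adjustment over all probe sets, with adjusted p = 0.621 and 0.738. The sources used here do not place the probes relative to the LoxP-flanked exons, so the residual signal says nothing firm about the extent of deletion. By Southern and western blot of thymus of the null genotype, the study reported efficient recombination and an almost complete loss of MED23 protein.

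**Figure D1:**
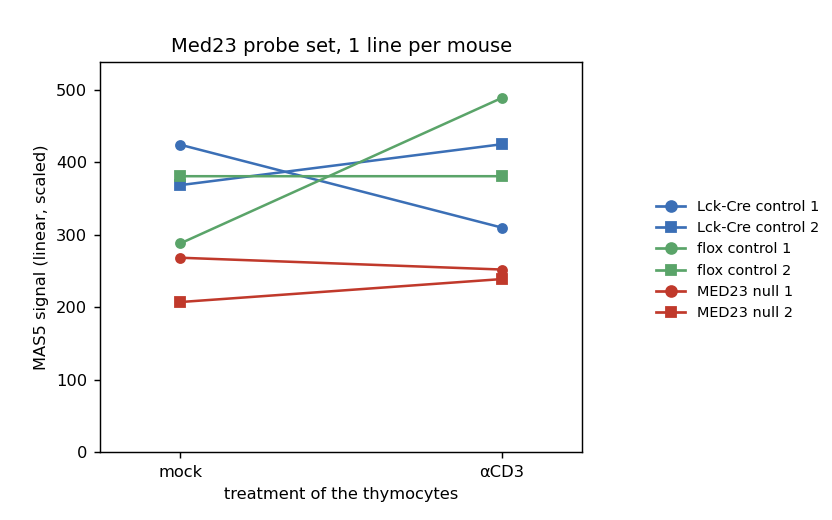
Linear MAS5 signal of the *Med23* probe set (vertical axis) in mock and αCD3 cells, with 1 line per mouse, coloured by genotype. Both MED23 null mice, between 207 and 268, lie below every control array of the same treatment, the lowest of which are 288 in mock and 310 after αCD3.

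The first question was whether the rest of the machinery differed between MED23 null and control thymocytes at rest. None of the 46 genes passed the limma test in mock cells, and the smallest adjusted p was that of *Med23*. The percentage of all probe sets called at this threshold was 0, so the array as a whole gave no call either. At an unadjusted p below 0.05 there was 1 gene of the 46, again *Med23*, against 7.4% of all probe sets. The median log2 difference of the 46 genes was -0.08, against 0.01 over all probe sets, with 20 genes above 0 and 26 below. The 95% interval of the difference stayed within 2-fold for 43 of the 46 genes (93.5%, against 72.1% of all probe sets), the exceptions being *Gtf2f2*, *Med14* and *Taf6*. The 46 genes were brighter than the array as a whole, with a median log2 level per array of 9.35 to 9.76 against 8.59 to 8.77, and the part of this in the narrower intervals was not tested. With 2 null and 4 control mice an exact permutation test of any single gene cannot give a two-sided p below 0.133.

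Among the Mediator genes 9 of 13, *Med23* included, had a negative difference in mock cells, against 4526 of 9478 probe sets. The median of the 13 was -0.14 on the log2 scale. After *Med23*, the lowest was *Med11*, a head subunit, at -0.39 (SE 0.21). Its mock signals were 230 and 316 in the Lck-Cre mice, 245 and 354 in the flox mice, and 177 and 233 in the null mice. Null mouse 2 overlapped the controls for *Med11*, and the limma adjusted p was 0.729. *Med1*, which carries the nuclear receptor contact, gave -0.23 with both control genotypes, -0.47 against the Lck-Cre mice alone and 0.00 against the flox mice alone, so the value depended on which controls were used. The other head, middle and tail genes were *Med10* (-0.17), *Med20* (-0.15), *Med22* (0.19), *Med24* (0.06), *Med27* (-0.15) and *Med28* (-0.14), all with intervals that included 0. *Med14*, the scaffold that joins the modules, gave 0.54 (SE 0.54), but its mock signals ran from 12.9 to 158 and lay on both sides of the filter level within the flox and the null mice.

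The kinase module, made of CDK8, cyclin C, MED12 and MED13, was represented by *Cdk8*, *Ccnc* and *Med12*. Their mock differences were -0.05, 0.16 and -0.09 on the log2 scale, and each 95% interval lay within 1.5-fold. *Ccnc*, which encodes the cyclin partner of CDK8, had mock signals of 328 and 336 in the Lck-Cre mice, 274 and 306 in the flox mice, and 358 and 347 in the null mice. Both null arrays were above all controls for *Ccnc*, although the means differed by a ratio of 1.13 and the limma adjusted p was 0.827.

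Of the Pol II subunits, 7 of 11 had a negative mock difference, against 4526 of 9478 probe sets. The median of the 11 was -0.11. The largest in size were *Polr2i* (0.42, SE 0.22) and *Polr2a* (0.35, SE 0.20), which encode the RPB9 subunit and the catalytic subunit that bears the C-terminal repeat domain. *Polr2i* had mock signals of 354 and 374 in the Lck-Cre mice, 234 and 244 in the flox mice, and 420 and 401 in the null mice. The null arrays were above all 4 controls for *Polr2i*, the flox arrays lay farthest below, and the limma adjusted p was 0.722. For *Polr2a* a further probe set gave 0.00 (SE 0.17) in mock cells, so the positive value was not shared by both probe sets. The subunits held in common with the other nuclear RNA polymerases, *Polr2e*, *Polr2f*, *Polr2h* and *Polr2l*, gave -0.12, -0.17, -0.19 and -0.11.

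General transcription factor genes had a median of -0.16, with 7 of 10 below 0, against 4526 of 9478 probe sets. TBP and TAF genes had a median of 0.20, with 7 of 10 above 0, against 4952 of 9478 probe sets. Without the 4 SL1 TAF genes, the median of the other 6 was 0.14, with 4 above 0. Among the general transcription factor genes *Gtf2f2*, the smaller TFIIF subunit, gave -0.69 (SE 0.67) on signals that ran from 127 to 713 in mock controls alone. *Gtf2h4*, the p52 subunit of TFIIH, gave -0.44 (SE 0.22) from 4880 and 4316 in the Lck-Cre mice, 4363 and 2985 in the flox mice and 3006 and 2980 in the null mice. Flox mouse 2 was as low as the null mice for *Gtf2h4*, and the limma adjusted p was 0.712. *Taf11*, a histone-fold subunit of TFIID, had mock signals of 561 and 580 in the Lck-Cre mice, 676 and 524 in the flox mice, and 384 and 506 in the null mice, a difference of -0.37 (SE 0.18). *Taf1b*, a subunit of the SL1 factor that serves RNA polymerase I, gave 0.35 (SE 0.18), and the elongation factor genes *Supt5* and *Supt6* gave 0.12 and 0.34. The TATA-binding protein gene *Tbp* stood at 0.06 (SE 0.18), with means of 497 ± 78.1 (SD, n = 4) in controls and 517 ± 30.9 (SD, n = 2) in null cells.

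Genes whose groups did not overlap were few in mock cells. Both null arrays were below all 4 control arrays for 3 genes, *Med23*, *Taf11* and *Gtf2i*, or 6.52% of the 46, against 8.44% of all probe sets. They were above all controls for 3 genes, *Ccnc*, *Polr2i* and *Taf10*, also 6.52%, against 9.27% of all probe sets. The further probe set of *Gtf2i* overlapped in mock cells, with null signals of 2815 and 2253 and controls at 2628 to 2853. These counts depended on the mice included, and the share of all probe sets with fewer mice was not counted. Leaving out any 1 mouse moved the first to between 5 and 12, the highest without null mouse 2, and the second to between 3 and 12, the highest without null mouse 1.

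**Figure D2:**
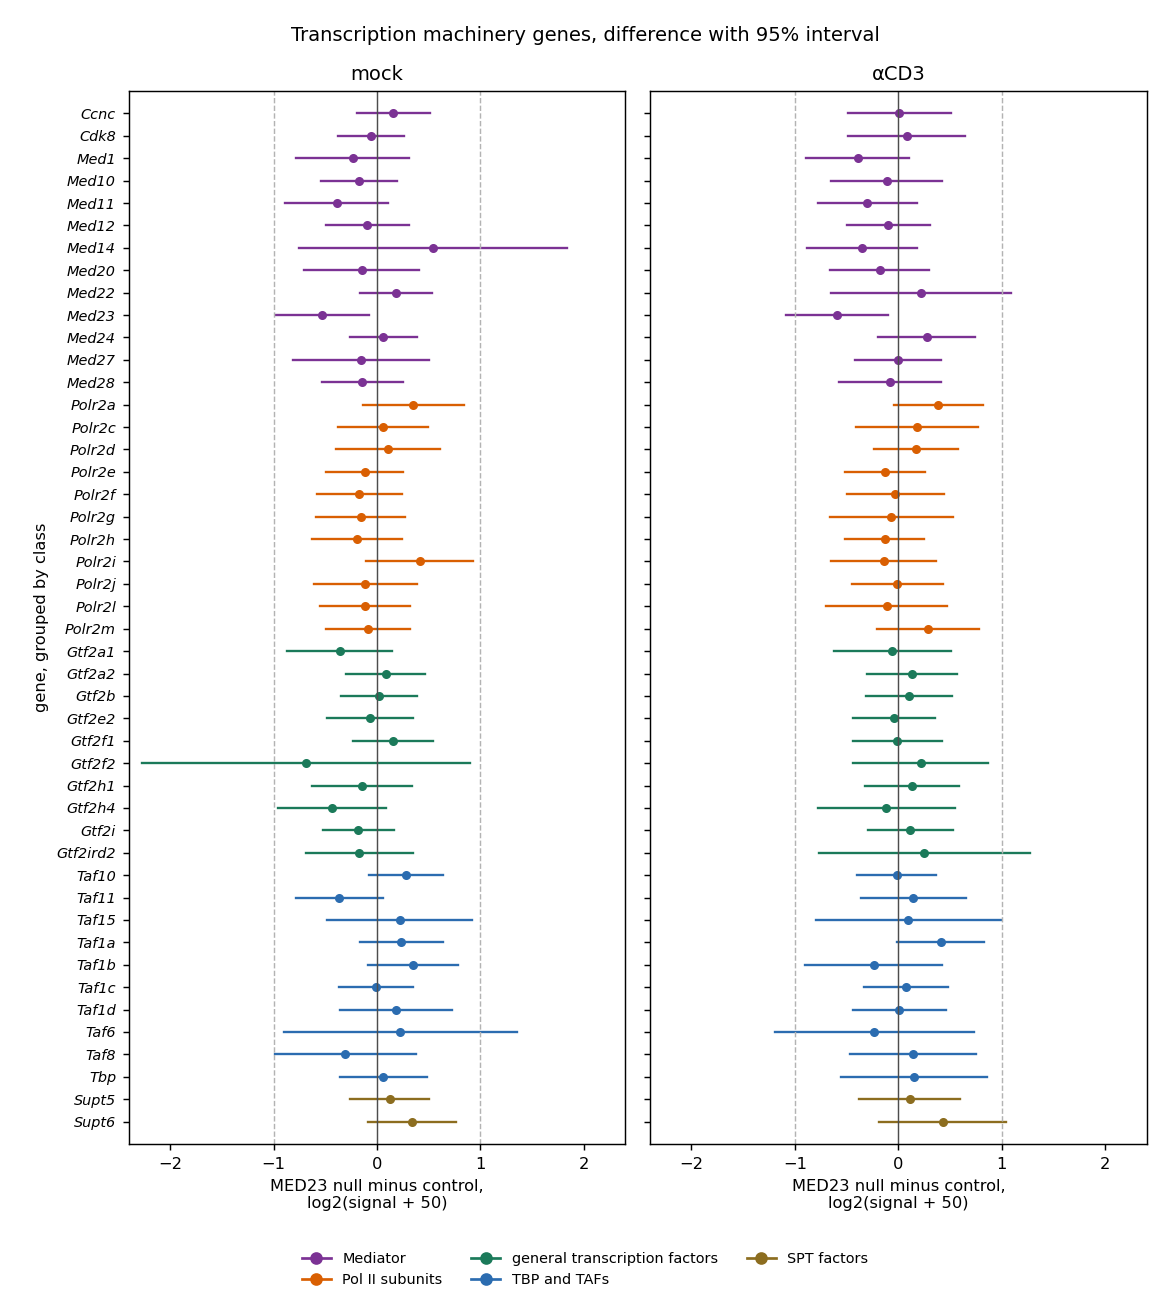
MED23 null minus control difference in log2(signal + 50) (horizontal axis, dot) with its 95% interval (line) for 46 genes, coloured by class, in mock (left) and αCD3 (right) cells. Dashed lines mark 2-fold. The intervals of *Med23* alone exclude 0 in both panels, and neither is called after adjustment.

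The same comparison after αCD3 gave a like picture. None of the 46 genes passed the limma test, and the percentage called over all probe sets was again 0. At an unadjusted p below 0.05 there was 1 gene, *Med23*, against 6.16% of all probe sets. The median log2 difference was 0.00, against -0.01 over all probe sets, with 23 genes on either side of 0. The 95% interval stayed within 2-fold for 41 of 46 genes (89.1%, against 65.7% of all probe sets), with *Gtf2ird2*, *Med22*, *Med23*, *Supt6* and *Taf6* outside.

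Mediator genes had a median of -0.10 after αCD3, with 9 of 13 below 0, *Med23* included, against 4923 of 9478 probe sets. The lowest after *Med23* was *Med1* at -0.39 (SE 0.21), from 815 and 869 in the Lck-Cre mice, 817 and 612 in the flox mice and 511 and 648 in the null mice. Flox mouse 2 lay between the null mice for *Med1*, and the limma adjusted p was 0.900. The other values were -0.30 for *Med11*, -0.35 for *Med14*, -0.18 for *Med20*, -0.11 for *Med10*, -0.10 for *Med12*, -0.08 for *Med28*, 0.00 for *Med27*, 0.22 for *Med22* and 0.27 for *Med24*. *Cdk8* and *Ccnc* gave 0.08 and 0.01.

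Pol II subunits had a median of -0.03 after αCD3. *Polr2a* was 1320 and 1605 in the Lck-Cre mice, 1231 and 1505 in the flox mice, and 1890 and 1826 in the null mice, a difference of 0.39 (SE 0.18) with a limma adjusted p of 0.864. Its further probe set gave 0.35 (SE 0.20) with overlapping groups. *Polr2m*, which encodes the Pol II-associated protein Gdown1, was 2184 and 1955, 1450 and 1736, and 2227 and 2213 in the same order of genotypes, a difference of 0.29 (SE 0.21). The null arrays of *Polr2m* exceeded the highest control by a small margin.

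TBP and TAF genes had a median of 0.09 (0.12 without the 4 SL1 TAF genes) and general transcription factor genes of 0.11. *Taf1a*, another subunit of SL1, was 377 and 389 in the Lck-Cre mice, 299 and 368 in the flox mice, and 481 and 498 in the null mice. Both null arrays were clear of all controls for *Taf1a*, with a null to control ratio of means of 1.37, a log2 difference of 0.41 (SE 0.18) and a limma adjusted p of 0.822. *Taf1b* turned to -0.24 (SE 0.28), and was -0.56 against the Lck-Cre mice and 0.09 against the flox mice. *Gtf2ird2* and *Gtf2f2* gave the largest values of their class, 0.25 (SE 0.43) and 0.22 (SE 0.28). *Supt6*, which encodes a histone chaperone of elongating Pol II, gave 0.43 (SE 0.26), and *Supt5* gave 0.11. *Gtf2i*, which encodes the signal-responsive factor TFII-I, gave 0.12 (SE 0.17), but a further probe set of the gene gave -0.48 (SE 0.17), with null signals of 2014 and 1977 below the controls at 2458 to 3095. The disagreement between the probe sets of *Gtf2i* concerned direction, so no direction is given for the gene.

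Groups did not overlap after αCD3 for 2 genes with lower null arrays, *Med23* and *Polr2h* (4.35%, against 8.61% of all probe sets), and for 4 genes with higher null arrays, *Polr2a*, *Polr2d*, *Polr2m* and *Taf1a* (8.7%, against 6.9%). *Med23* was the 1 gene of 46 below all controls in both treatments, against 1.9% of all probe sets. No gene was above all controls in both treatments, against 1.42% of all probe sets. Like the mock counts, these moved with the mice included, to between 2 and 12 lower genes (12 without null mouse 2) and between 4 and 16 higher genes (16 without null mouse 1). Again no share of all probe sets was counted with fewer mice.

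The second question was how the machinery responded to αCD3, taken as the αCD3 minus mock difference within each mouse. In control mice none of the 46 genes passed the limma test, against 0.148% of all probe sets, and 2 had an unadjusted p below 0.05, *Med14* and *Polr2h*, against 7.78% of all probe sets. The median response was -0.03 on the log2 scale, against 0.00 over all probe sets. The 95% interval stayed within 2-fold for 43 of 46 genes and within 1.5-fold for 32 of them (69.6%, against 47.7% of all probe sets). In null mice no gene passed either, against 0.0317% of all probe sets, and 1 gene, *Taf1b*, had an unadjusted p below 0.05, against 5.36%. The median response in null mice was 0.03, and the interval stayed within 2-fold for 40 of 46 genes.

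The members as a set moved little in 5 of the 6 mice. Their median response was 0.01 and -0.04 in the Lck-Cre mice, -0.24 and -0.04 in the flox mice, and -0.01 and 0.08 in the null mice. Flox mouse 1 stood apart, and its αCD3 array is the one described above with a raised lower quartile. Without this mouse the median control response was 0.01, and again no gene was called.

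**Figure D3:**
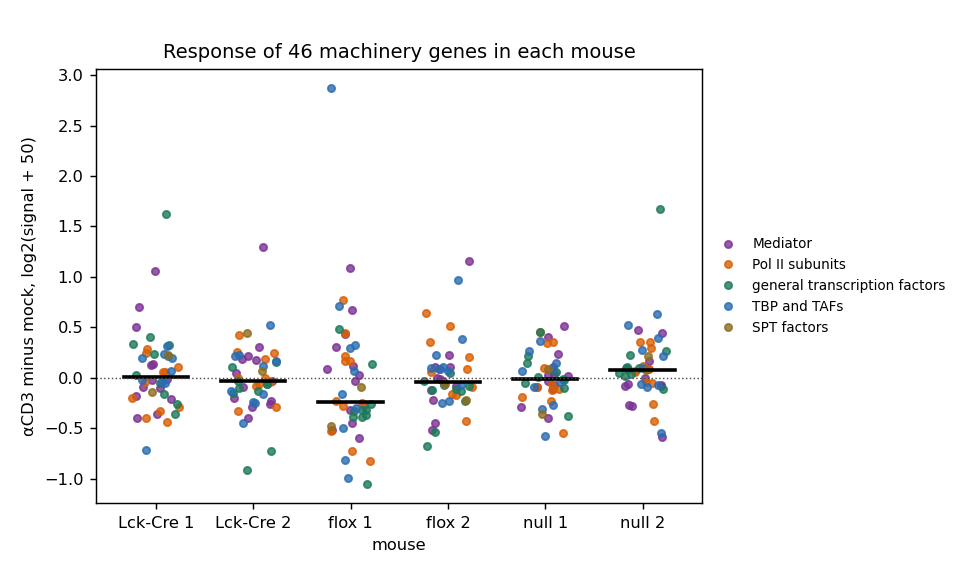
Response of 46 genes (αCD3 minus mock, log2(signal + 50), vertical axis) in each of 6 mice, with 1 dot per gene coloured by class and a bar at the median. The medians lie between -0.04 and 0.08 except in flox mouse 1, at -0.24, where *Taf6* is the highest dot.

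A few genes moved alike in every mouse. *Polr2h*, which encodes RPB8, was higher after αCD3 in 6 of 6 mice, from 630 to 753 and 597 to 819 in the Lck-Cre mice, 533 to 743 and 790 to 823 in the flox mice, and 559 to 723 and 535 to 699 in the null mice. Its response was 0.29 (SE 0.12) in controls and 0.35 (SE 0.17) in null mice, with limma adjusted p of 0.642 and 0.998. *Taf1a* was also higher in 6 of 6 mice, from 319 to 377 and 256 to 389 in the Lck-Cre mice, 284 to 299 and 344 to 368 in the flox mice, and 391 to 481 and 333 to 498 in the null mice. The increments of *Taf1a* were small in the flox mice, and the control response was 0.22 (SE 0.13). *Ccnc* was lower in 6 of 6 mice, from 328 to 284 and 336 to 328 in the Lck-Cre mice, 274 to 266 and 306 to 199 in the flox mice, and 358 to 259 and 347 to 277 in the null mice. Its response was -0.19 (SE 0.13) in controls and -0.34 (SE 0.19) in null mice, and neither was called.

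Such runs were about as frequent among the 46 genes as over the array. *Polr2h* and *Taf1a* made 4.35% higher in 6 of 6 mice, against 3.61% of all probe sets, and *Ccnc* made 2.17% lower in 6 of 6, which is also the 2.17% of all probe sets. Among the 4 control mice alone, 4 genes were higher in all (*Polr2h*, *Taf10*, *Taf1a* and *Taf1d*; 8.7%, against 9.16%) and 4 were lower in all (*Ccnc*, *Gtf2a1*, *Gtf2i* and *Taf8*; 8.7%, against 8.68%). Read against these percentages, the counts are not a result about the machinery. The further probe sets of *Taf1d* were higher in 2 and 3 of the 4 control mice, and that of *Gtf2i* in 3, so both places rest on the chosen probe set.

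The promoters of the 3 genes that moved one way in all mice are shown as the reference sequence behind them, each running from 250 bases before to 50 after an annotated start (RefSeq, GRCm38.p6). Capitals mark matches, on either strand, to the letters TATAAA (called the TATA box), CCGGAAG (a core bound by ETS factors, the family of ELK1), GGGCGG (called the GC box), CCAAT (named for its letters) or GCGCATGC (NRF1 core). *Polr2h* lies at chr16:20717576-20717875, *Taf1a* at chr1:183388635-183388934 and *Ccnc* at chr4:21727451-21727750, all on the + strand, and the window shown for *Polr2h* and *Taf1a* is 1 of 2 in the table.
Polr2h: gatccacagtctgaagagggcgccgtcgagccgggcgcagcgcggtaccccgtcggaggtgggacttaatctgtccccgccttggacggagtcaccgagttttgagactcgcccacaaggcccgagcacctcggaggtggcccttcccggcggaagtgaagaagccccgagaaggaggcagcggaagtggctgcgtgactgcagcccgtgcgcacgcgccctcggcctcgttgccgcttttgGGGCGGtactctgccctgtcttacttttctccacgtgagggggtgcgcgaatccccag
Taf1a: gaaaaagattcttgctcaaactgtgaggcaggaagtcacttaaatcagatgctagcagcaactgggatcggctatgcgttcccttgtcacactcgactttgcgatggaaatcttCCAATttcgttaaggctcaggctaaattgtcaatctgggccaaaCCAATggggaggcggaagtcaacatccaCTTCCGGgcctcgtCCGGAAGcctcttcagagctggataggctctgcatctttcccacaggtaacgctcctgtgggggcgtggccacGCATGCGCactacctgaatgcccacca
Ccnc: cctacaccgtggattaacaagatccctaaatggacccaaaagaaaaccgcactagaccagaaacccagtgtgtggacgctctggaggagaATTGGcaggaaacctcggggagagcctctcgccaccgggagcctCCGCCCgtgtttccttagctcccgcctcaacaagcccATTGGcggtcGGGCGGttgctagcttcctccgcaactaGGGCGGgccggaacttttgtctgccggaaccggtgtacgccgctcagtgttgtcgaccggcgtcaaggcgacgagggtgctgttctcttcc

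The *Polr2h* window holds 1 match, a GC box, the *Taf1a* window 5, of which 2 are CCAAT boxes, 2 are ETS cores and 1 is an NRF1 core, and the *Ccnc* window 5, of which 3 are GC boxes and 2 are CCAAT boxes. No marked match overlaps another in these windows. None of the 5 motifs was matched in all 3 windows shown, but with every window of a gene counted the GC box was matched in all 3 genes. Of the 47 genes, 42 had a promoter in the table, and *Gtf2e2*, *Med23*, *Med24*, *Polr2d* and *Polr2g* did not. A gene was counted when any of its windows held the letters. The ETS core was in 13 of the 42 (31.0%), against 9.93% of all genes in the table and 17.1% of the genes on the array. The GC box was in 28 (66.7%, against 38.2% and 63.0%), the CCAAT box in 14 (33.3%, against 41.1% and 42.5%), the TATA box in 7 (16.7%, against 15.7% and 12.2%) and the NRF1 core in 4 (9.52%, against 3.05% and 5.29%). A match describes letters in a window and not a site in use.

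The remaining responses in control mice can be ordered by role. Mediator genes had a median of 0.05. *Med14* gave the largest Mediator value, 0.80 (SE 0.30), with a limma adjusted p of 0.615. Its signals went from 13.2 to 81.7 and 12.9 to 105 in the Lck-Cre mice, 142 to 103 and 41.7 to 154 in the flox mice, and 35.0 to 62.2 and 158 to 87.8 in the null mice. Signals this low are near the filter level, and the direction was not shared by flox mouse 1 or null mouse 2. The other Mediator genes were *Cdk8* (-0.17), *Med1* (-0.12), *Med10* (-0.10), *Med11* (0.08), *Med12* (0.07), *Med20* (0.05), *Med22* (0.18), *Med23* (0.11), *Med24* (0.03), *Med27* (-0.19) and *Med28* (0.12). In null mice *Med23* gave 0.05 (SE 0.26).

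Pol II subunits had a median response of 0.00 in controls, and TBP and TAF genes of 0.10 (0.00 without the 4 SL1 TAF genes). General transcription factor genes had a median of -0.10, with 9 of 10 below 0, against 4706 of 9478 probe sets. *Gtf2i* was lower after αCD3 in all 4 control mice, from 5123 to 4588 and 4953 to 4625 in the Lck-Cre mice and 5276 to 4073 and 5685 to 3907 in the flox mice, a response of -0.29 (SE 0.13). In the null mice *Gtf2i* went from 4428 to 4368 and from 4840 to 4958, and its further probe set gave a control response of 0.02 (SE 0.12). *Taf8*, a TFIID subunit that pairs with TAF10, gave -0.36 (SE 0.18), with a drop from 825 to 388 in flox mouse 1 and smaller ones in the other controls. *Taf6* gave 0.81 (SE 0.49), a value carried by flox mouse 1, where the signal went from 37.9 to 592, while the other controls went from 161 to 198, 237 to 191 and 186 to 258. *Polr2i* gave 0.26 (SE 0.20), and *Supt5* and *Supt6* gave -0.06 and -0.01.

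A plain criterion of a mean ratio of at least 2 on linear signals was met by *Med14* (4.68) and *Taf6* (4.76) in control mice and by *Gtf2f2* (2.34) in null mice, and for the null over control ratio of responses, at 1/2 or less, by *Med14* (0.249) and *Taf6* (0.296). The SD of the ratio was 3.20 for *Med14*, 7.24 for *Taf6* and 2.25 for *Gtf2f2*, so in each the spread between mice was near or above the ratio's distance from 1. *Gtf2f2* shows this in single mice, with signals from 127 to 494 in Lck-Cre mouse 1, 713 to 354 in Lck-Cre mouse 2 and 149 to 584 in null mouse 2. The criterion was applied to the 46 genes alone, without a share over all probe sets, so no result about the machinery is drawn from it.

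**Figure D4:**
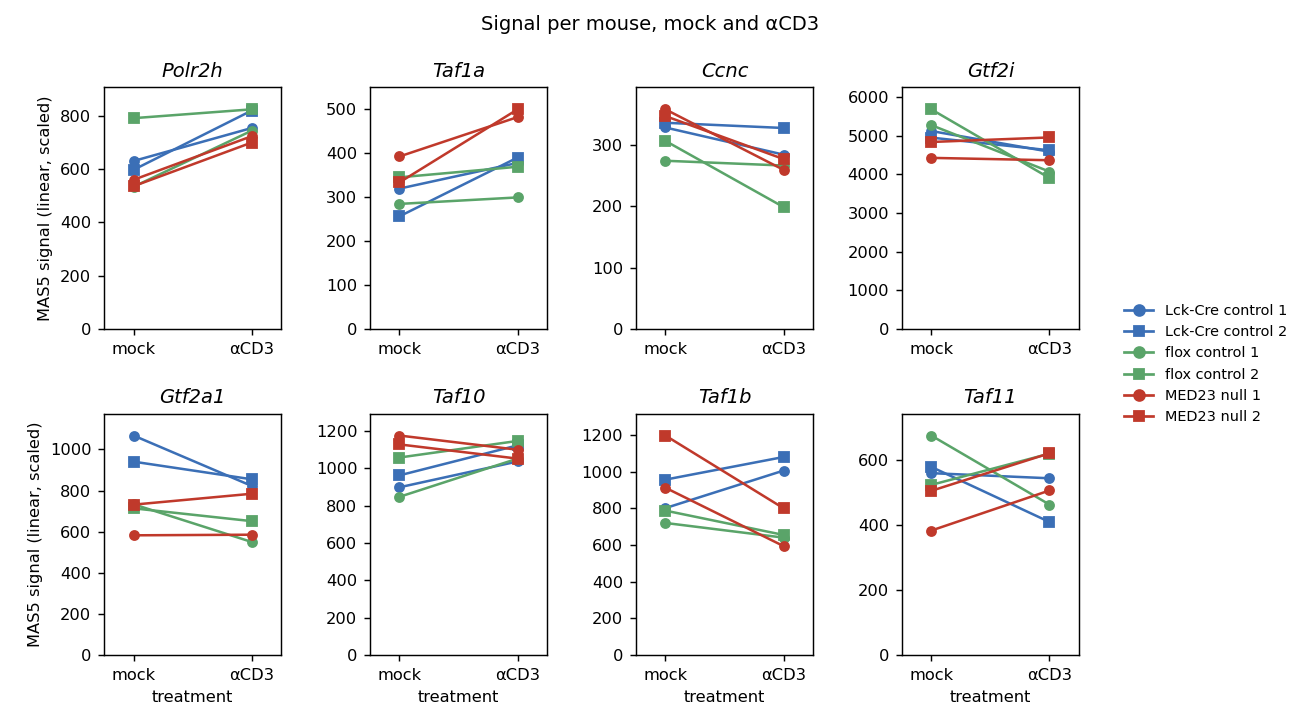
Linear MAS5 signal (vertical axes, from 0) of 8 genes in mock and αCD3 cells, with 1 line per mouse coloured by genotype. *Polr2h* and *Taf1a* are higher and *Ccnc* is lower after αCD3 in all 6 mice. The lines of null and control mice run in opposite directions for *Gtf2a1* and *Taf10*, with null mouse 1 nearly level for *Gtf2a1*.

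The last comparison asked whether the response differed between null and control mice. None of the 46 genes passed the limma test of the difference, and the percentage called over all probe sets was 0. At an unadjusted p below 0.05 there was 1 gene, *Taf1b*, against 5.13% of all probe sets. The median difference in response was 0.06, against -0.02 over all probe sets, and the 95% interval stayed within 2-fold for 35 of 46 genes (76.1%, against 50.5% of all probe sets), which makes this the least precise of the 5 comparisons for these genes.

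*Taf1b* went from 802 to 1006 and 957 to 1080 in the Lck-Cre mice, 721 to 641 and 788 to 655 in the flox mice, and 913 to 595 and 1197 to 801 in the null mice. Both null mice showed larger drops than any control, and the control genotypes themselves ran in opposite directions. The difference was -0.58 (SE 0.24), with a limma adjusted p of 0.957. *Taf10*, which encodes a TAF shared by TFIID and SAGA, was higher after αCD3 in 4 of 4 controls, from 898 to 1036, 961 to 1122, 847 to 1051 and 1057 to 1145, and lower in both null mice, from 1174 to 1098 and 1127 to 1051. The difference for *Taf10* was -0.30 (SE 0.19). The null signals of *Taf10* started above all controls and ended among them.

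*Gtf2a1*, which encodes the large TFIIA precursor, ran the other way. It was lower after αCD3 in 4 of 4 controls, from 1068 to 823 and 941 to 855 in the Lck-Cre mice and 734 to 550 and 714 to 652 in the flox mice, and slightly higher in the null mice, from 583 to 586 and 732 to 785. The difference was 0.30 (SE 0.20) and was not called. *Taf11* gave 0.51 (SE 0.27), with null signals that went from 384 to 507 and 506 to 622.

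Responses did not overlap for 3 genes with lower values in both null mice, *Med1*, *Taf10* and *Taf1b* (6.52%, against 7.42% of all probe sets), and for 5 with higher values, *Gtf2a1*, *Gtf2h4*, *Gtf2i*, *Taf11* and *Taf8* (10.9%, against 6.06%). Of the latter, 3 are general transcription factor genes. That class, which takes in *Gtf2i* and *Gtf2ird2* by their symbol alone, had a median difference of 0.29. In it 9 of 10 were above 0, against 4524 of 9478 probe sets. No gene of this class was called. Its genes were lower after αCD3 in 4 and 8 of 10 cases in the Lck-Cre mice, 8 and 9 in the flox mice, and 5 and 1 in the null mice. For *Gtf2i* the further probe set went the other way, with a difference in response of -0.34 (SE 0.21) and both null mice below all controls, so its place in this count rests on the chosen probe set.

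**Figure D5:**
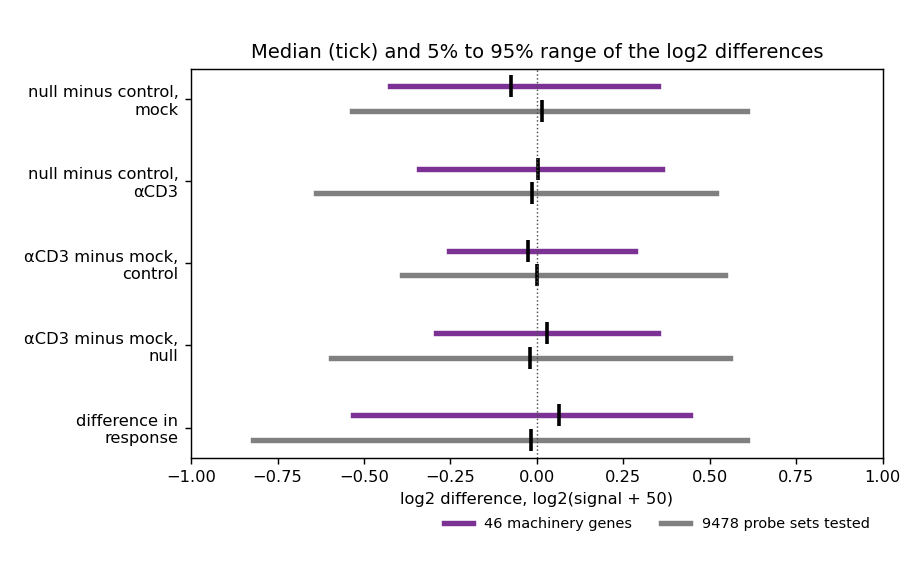
Median (tick) and range from the 5% to the 95% quantile (bar) of the log2 difference for 46 machinery genes and for all probe sets tested, in 5 comparisons (horizontal axis, log2(signal + 50)). The medians of the machinery genes lie between -0.08 and 0.06, and each of their ranges is narrower than that over all probe sets.

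Related genes outside the rule gave no calls either. Measured were 4 of 5 further TFIIH subunits, 14 of 20 genes of pausing and elongation and 9 of 14 cofactors of TBP and coactivators, of which 26 passed the filter. None was called in any of the 5 comparisons by limma, with a median null minus control difference of 0.11 in mock and -0.05 after αCD3 and a median response of 0.09 in controls and -0.08 in null mice. *Ell2*, which encodes an elongation factor of the super elongation complex, gave the largest mock value, 0.96, on signals of 18.1 to 169 in mock controls and of 209 and 153 in null mice. *Eloa*, the Elongin A gene, gave 0.50 in mock cells, from 1117 to 1718 in controls and 2120 and 1903 in null mice, with a limma adjusted p of 0.670. *Cdk7*, the kinase of TFIIH, gave 0.51 in mock and -0.25 after αCD3, and *Mnat1*, its assembly factor, gave a control response of 0.47, beside 0.31 for *Cdk7*. The other largest values of these lists in mock cells were -0.35 for *Ercc2*, a TFIIH helicase, and -0.73 and 0.28 for the acetyltransferase genes *Kat2a* and *Kat2b*. After αCD3 they were 0.42 for *Ell2*, -0.28 for *Tcea2*, -0.33 for *Sub1*, -0.25 for *Dr1* and -0.06 for *Ercc3*, and in the control response 0.45 for *Ell2*, 0.28 for *Eloc*, -0.51 for *Kat2a* and 0.29 for *Sub1*.

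Some of the 46 probe sets carry limits of their own. In 10 genes the chosen probe set has a name ending that marks probes shared with other transcripts or an incomplete probe rule, among them *Med12*, *Med20*, *Med22*, *Med27*, *Polr2a*, *Polr2c*, *Gtf2f2* and *Taf15*. The 2 probe sets of *Med22* disagreed on the αCD3 array of flox mouse 1, which stood apart as a whole: the chosen one gave 3562 against 1534 to 1678 in the other controls and the further one gave 386 against 515 to 727.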

How the data were processed

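The authors deposited 1 MAS5 signal intensity per probe set and array on a linear scale, for 12488 probe sets on 12 arrays. The submitters' processing notes name MAS5 without a version, and the study analysed the arrays in Spotfire. The signals were rescaled to Lck-Cre mouse 1, mock, by a mean trimmed of 2% at each end, which moved no array appreciably since the deposited intensities already shared this mean. Control probe sets (66) were left out, 50 was added before taking log2, and 9478 probe sets had a mean of at least 100 in at least 1 of 6 conditions. For arrays, the number of mice limits the precision.

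Null was compared with control in each treatment, and αCD3 minus mock differences, paired by the mouse identifier in the labels, gave the control response, the null response and their difference. The correlation of the paired deviations was 0.104 to 0.194 in controls and 0.061 in null mice. Each of the 5 comparisons was fitted with limma 3.58.1 in R 4.3.3 over all 9478 probe sets, with eBayes and Benjamini-Hochberg adjustment at 0.05. The fit was also run on simulated data without a shared effect of the mouse, with planted changes larger than most differences given here. That run does not show how well differences of the reported size are called. Figures used Python 3.11.15 and matplotlib 3.10.9.

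The annotation gave 1 symbol to 10833 probe sets, several to 396 and none to 1193. Members and gene lists were chosen with earlier results of these data known. Every Mediator gene was named. From other classes the rule named the 2 genes with the largest log2 difference in mock, αCD3 and control response, any called gene and any without overlap in both treatments, and from related lists the 2 largest. *Taf10*, *Taf11*, *Taf1a*, *Gtf2a1*, *Polr2e*, *Polr2f*, *Polr2l*, *Tbp* and the genes in counts of genes without overlap were also named after their values were seen. Alternatives covered the added constant, filter, scaling, eBayes trend, control genotype, each mouse, pairing, probe sets and a ratio rule on linear signals.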

Additional observations from a re-analysis of the deposited data

Results flagged for a closer look

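On 7 of 92 control groups of 4 arrays 1 array lay far from the other 3, its gap to the nearest of them taking a larger part of the group's range than Dixon's 95% limit for 4 samples, which chance passes in about 1 in 20 groups. All 7 were arrays of flox mouse 1, 4 of them its αCD3 array, whose lower quartile stood apart over the whole array. After αCD3 the gap was 0.875 of the range for *Gtf2ird2* (581, against 185 to 234), 0.868 for *Med10* (525, against 780 to 819), 0.929 for *Med22* (3562, against 1534 to 1678) and 0.834 for *Taf6* (592, against 191 to 258). In mock cells it was 0.865 for *Med24* (1422, against 1327 to 1340), 0.849 for *Med27* (1107, against 1885 to 2023) and 0.860 for *Polr2g* (2271, against 1691 to 1772).

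For *Gtf2a1* and *Taf10* all control mice moved one way after αCD3 and both null mice the opposite way. For *Gtf2a1* null mouse 1 was nearly level, from 583 to 586. The share of all probe sets with such a pattern was not counted. The difference in response, null minus control, was 0.30 for *Gtf2a1* and -0.30 for *Taf10*. The limma test of the difference gave adjusted p = 0.9997 for each, so it was not called.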

How the results depend on the processing

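Calls at the adjusted threshold stayed at 0 in all 5 comparisons under every limma alternative: a constant of 10 or 100 in place of 50, no filter or a stricter one, 10% trimming or quantile normalization, an eBayes trend, 1 control genotype, the mean over probe sets and each mouse left out. With replicate number as a block across genotypes, numbers that mark no shared animal, there were again 0 calls (median -0.08 mock, 0.00 αCD3), and without pairing by mouse, or with the mouse as a random block, 0 again. Since no gene passed the limma threshold, none could change direction past it. Some single-gene values changed sign with the setting, among them *Taf1b* after αCD3 (-0.56 to 0.09) and *Supt6* in the control response (-0.35 to 0.33). The null minus control difference of *Med23* stayed negative, at -0.68 to -0.37 in mock and -0.71 to -0.48 after αCD3. The ratio rule on linear signals counted 2 genes in the control response, 1 in the null response and 2 in the difference. It was not applied to all probe sets, so these counts have no share to be read against. The mock median, -0.08, was -0.0467 against Lck-Cre mice alone and -0.068 to -0.0356 with 1 mouse left out. Counts without overlap moved most, and the share of all probe sets under these settings was not counted. Null below control in mock, 3, became 6 with 10% trimming, 9 against Lck-Cre mice, 10 against flox mice and 5 to 12 with 1 mouse left out. Null above control in mock, 3, became 11, 7 and 3 to 12 against Lck-Cre mice, against flox mice and with 1 mouse left out. After αCD3, below, 2, became 1 with 10% trimming, 9, 8 and 2 to 12, and above, 4, became 10, 8 and 4 to 16. The rise with fewer mice follows from the construction, since fewer arrays have to be exceeded. With 1 null mouse left out, the lone null mouse is assumed to vary like the others. Of the single-gene values, 14 moved by more than the replicate SD, each when either null mouse was left out. Precision is limited by 2 null mice, and low signals (*Med14*, *Taf15*) lie near the level of the filter.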
